A study of Mus musculus with 4 samples.

Results

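The unfolded-protein, integrated-stress and heat-shock genes are a list of 50 genes chosen by symbol, all of which were found among the 53379 genes of the table. They are 15 endoplasmic reticulum (ER) chaperones and oxidoreductases, 4 sensors and factors of the unfolded protein response (UPR), 4 genes of ER-associated degradation, 4 kinases and transcription factors of the integrated stress response (ISR), 8 enzymes known as targets of ATF4, 12 cytosolic heat-shock genes and 3 mitochondrial chaperones. RNA-seq was performed on CD3+CD4+YFP+ Treg cells of the large intestine (LI), sorted from untreated adult C57BL/6 mice, with 2 libraries from littermate control mice and 2 from KO mice, each library pooled from 2 to 3 mice. Control mice were Foxp3Cre-YFPSetd2f/+ (in the sample labels Setd24flox/+Foxp3-YFPcre) and KO mice Foxp3Cre-YFPSetd2f/f (Setd24flox/floxFoxp3-YFPcre). Mice of both groups therefore carried Foxp3Cre-YFP, a Cre recombinase expressed from the *Foxp3* locus in Treg cells, and the controls carried 1 floxed *Setd2* allele as well. *Setd2* is the methyltransferase that places trimethylation on lysine 36 of histone H3, and the comparison asks what its loss in Treg cells did to mRNA levels. The values were deposited as FPKM, fragment counts scaled to transcript length and to the mapped total, so levels can be compared between genes. The 4 columns also share one distribution, through a step that the methods do not name.

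Proteins that are secreted or placed in membranes fold in the ER with the help of chaperones such as BiP (*Hspa5*) and of the protein disulfide isomerases. When unfolded protein builds up, the membrane sensors IRE1 (*Ern1*), PERK (*Eif2ak3*) and ATF6 are activated: IRE1 splices the mRNA of *Xbp1*, ATF6 is cleaved to a transcription factor, and PERK phosphorylates the initiation factor eIF2α, as does GCN2 (*Eif2ak4*) when amino acids are short. Phosphorylated eIF2α lowers general translation and favours that of ATF4, which raises genes of amino acid synthesis and transport, and HSF1 drives the cytosolic heat-shock chaperones. Gene totals such as these FPKM do not measure *Xbp1* splicing, ATF6 cleavage or eIF2α phosphorylation.

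The promoter sequences below are shown because the ER stress response element (CCAAT and CCACG separated by 9 bases), a known binding sequence of ATF6 with NF-Y, lies upstream both of *Hsp90b1*, which was higher in KO at an unadjusted p below 0.05, and of *Calr* and *Pdia6*, which were lower by the same rule. Windows of 250 bases before to 50 bases after RefSeq gene starts (GRCm38.p6) were at hand for 42 of the 50 genes and were searched on both strands. The element was found in 8 of these 42 genes (19.0%) and in 0.119% of all 32851 windows. The genes were *Calr*, *Canx*, *Creld2*, *Dnajc3*, *Hsp90b1*, *Hspa5*, *Pdia6* and *Syvn1*. The list was chosen by symbol for these pathways, so its higher share is no result of these data. The first share counts genes, which had 49 windows together, and the second counts windows. Both limits hold for the further motifs below. The sequences are 5′ to 3′ on the strand of the gene, the capitals mark the element, and *Hsp90b1* holds it once on each strand. They come from chr10:86705525-86705664 on the minus strand for *Hsp90b1*, chr8:84847052-84847111 on the minus strand for *Calr*, chr12:17266469-17266528 on the plus strand for *Pdia6*, chr11:50325774-50325833 on the minus strand for *Canx* and chr2:34772020-34772049 on the plus strand for *Hspa5*. The last lies in the annotated 5′ UTR of an *Hspa5* transcript (GENCODE) and is limited to 30 bases.
Hsp90b1: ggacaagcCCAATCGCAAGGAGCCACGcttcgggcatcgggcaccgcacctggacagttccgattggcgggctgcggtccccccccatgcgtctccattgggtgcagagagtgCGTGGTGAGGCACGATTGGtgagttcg
Calr: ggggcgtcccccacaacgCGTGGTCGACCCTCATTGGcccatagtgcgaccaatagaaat
Pdia6: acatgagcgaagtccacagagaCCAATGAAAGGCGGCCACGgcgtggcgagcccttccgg
Canx: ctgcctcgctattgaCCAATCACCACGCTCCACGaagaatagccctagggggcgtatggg
Hspa5: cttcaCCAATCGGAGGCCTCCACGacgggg

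Further motifs are shown for 1 ATF4 target and for the pair of mitochondrial chaperones. The ATF4-C/EBP element, searched as TGATGNAA, was found in *Aars*, *Asns*, *Chac1*, *Herpud1* and *Trib3*, which are 11.9% of the 42 genes, against 3.97% of all windows. In *Asns* (chr6:7693214-7693243, minus strand, 5′ UTR of the annotated transcript) it reads TGATGAAA. A run of 3 heat-shock units (GAA and TTC alternating, 2 bases apart) was found in *Hspd1*, *Hspe1* and *Hsph1*, 7.1% of the 42 genes against 0.603% of all windows. In *Hsph1* it lies after the gene start, at bases 15 to 27 or 36 to 48 of its 2 listed starts. *Hsp90aa1*, *Hsp90ab1*, *Hspa8*, *Hsf1*, *Hspa9*, *Atf6*, *Hyou1* and *Manf* had no window and were not searched for any motif. *Hspd1* and *Hspe1* stand head to head, and the same stretch (chr1:55088053-55088082, shown on the plus strand, in the 5′ UTR of the longer *Hspd1* transcript) is the match of both. The shorter CCACG was in 30 of the 42 genes and 32.77% of all windows, and overlaps every ER stress response element. The UPR element core TGACGTG was found in *Hspa5* alone of the 42, and in 2.01% of all windows.
Asns: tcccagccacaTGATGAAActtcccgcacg
Hspe1: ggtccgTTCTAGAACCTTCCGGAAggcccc

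For the comparison, limma was fitted to log2(FPKM + 1) over 7639 genes (protein-coding, averaging over 5 FPKM in control or in KO), of which 47 are stress genes. *Hyou1*, *Eif2ak4* and *Chac1* were under this filter, and *Trib3* passed it only through KO, where its mean was 5.315 FPKM against 4.285 in control. With Benjamini-Hochberg adjustment over all 7639 genes, limma called 0 of the 47 at an adjusted p below 0.05, where 0.314% of all genes were called higher and 0.275% lower. The lowest adjusted p was 0.0821, for *Hspb1*. The study's methods also set an unadjusted p below 0.05, but on p-values from edgeR, so the calls here are not the study's own. At this threshold in limma, 2 of the 47 (4.26%) were higher in KO, against 8.61% of all genes. Another 10 (21.3%) were lower, against 7.57% of all genes. In the text that follows, "called" means an unadjusted p below 0.05.

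The log2 fold change of KO over control was below 0 for 37 of the 47 genes (78.7%), with a median of -0.18, against 50.6% and a median of -0.00 over all genes. Both KO libraries were below both control libraries for 18 genes (38.3%, against 22.9% of all genes), and above both for 5 genes (10.6%, against 24.2%). The 50 genes together held 2.00% and 1.83% of the summed FPKM of control replicates 1 and 2, and 1.80% and 1.59% of that of KO replicates 1 and 2. KO replicate 2 had the lowest share, and KO replicate 1 exceeded KO replicate 2 for 31 of the 47 genes. Without KO replicate 2, 3 of the 47 genes were called lower and 1 higher, where 314 of all 7639 genes were lower and 330 higher. In that fit 33 of the 47 fold changes were below 0, with a median of -0.07. Fewer cells of a type and less RNA per cell cannot be told apart in these pools.

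**Figure D1:**
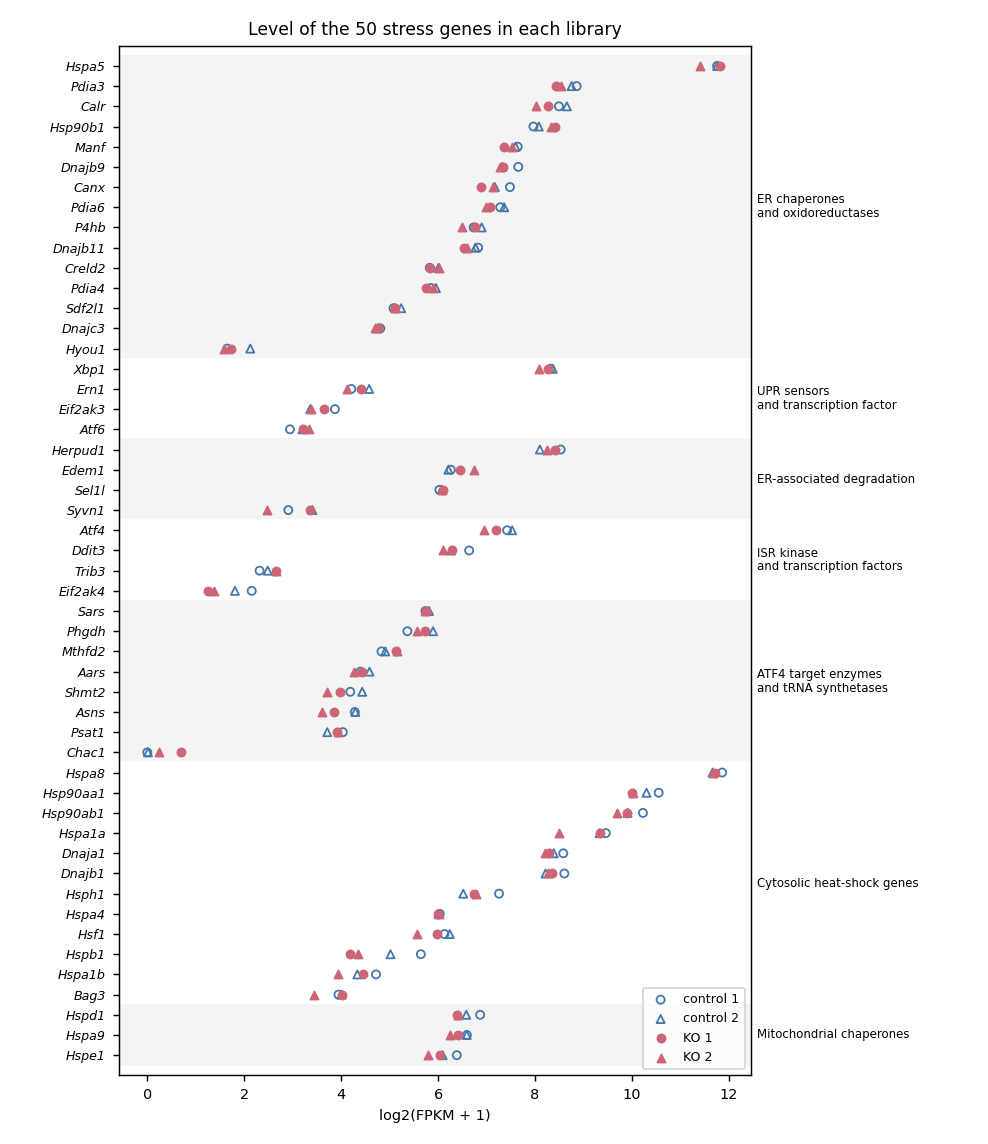
Level of each of the 50 stress genes in the 4 libraries as log2(FPKM + 1), grouped by role and ordered by level, with open symbols for control and filled symbols for KO. The genes run from *Chac1*, with at most 0.63 FPKM, to *Hspa8* and *Hspa5*, with 2704 FPKM or more in every library, and most pairs of groups lie close together.

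Of the ER chaperones and oxidoreductases, 12 of 14 (85.7%, against 50.6% of all genes) had a fold change below 0, with a median log2 of -0.18. In this group 3 (21.4%, against 7.57% of all genes) were called lower in KO and 1, *Hsp90b1*, higher (7.14%, against 8.61%). *Hsp90b1*, which encodes GRP94, the HSP90 of the ER, was at 249 and 269 FPKM in control replicates 1 and 2 and at 341 and 321 in KO replicates 1 and 2. Both KO libraries lay above both controls, and the log2 fold change was 0.35 (SE 0.11, limma, Benjamini-Hochberg adjusted p = 0.195). *Calr*, the lectin chaperone calreticulin, was at 359 and 402 FPKM in control and at 305 and 259 in KO. All KO values were below all control values, with a log2 fold change of -0.43 (SE 0.13, limma adjusted p = 0.177). *Pdia3* (ERp57), the disulfide isomerase that works with calreticulin and calnexin on glycoproteins, was at 463 and 430.2 FPKM in control and at 344 and 371 in KO. The groups did not overlap, and the log2 fold change was -0.32 (SE 0.11, limma adjusted p = 0.222). *Pdia6*, another disulfide isomerase, was at 154 and 163 FPKM in control and 132 and 127 in KO, again without overlap. Its log2 fold change was -0.29 (SE 0.11, limma adjusted p = 0.253). The call of *Hsp90b1* was lost without KO replicate 1, that of *Calr* without KO replicate 2, that of *Pdia3* without control replicate 1 or KO replicate 1, and that of *Pdia6* without control replicate 2 or either KO replicate.

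Calnexin (*Canx*), the membrane-bound partner of calreticulin, was not called. It was at 178 and 143 FPKM in control and at 117 and 139 in KO, so both KO values were lower, with a log2 fold change of -0.32 (limma adjusted p = 0.344, 95% confidence interval from -0.66 to 0.03). *Dnajb11* and *Manf* were likewise below both controls in both KO libraries without being called. *Hspa5*, the most abundant ER chaperone and a regulator of the sensors, was listed at the same 3452 FPKM in the control libraries and at 3586 and 2704 in KO. Its KO libraries lay on either side of the controls, and the log2 fold change of -0.15 had an interval from -0.51 to 0.21. The remaining ER chaperones, *Pdia4*, *P4hb*, *Dnajb9*, *Dnajc3*, *Sdf2l1* and *Creld2*, had log2 fold changes from -0.19 to 0.01, and *Hyou1*, under the filter, was at 2.00 to 3.36 FPKM. Of the 8 genes with an ER stress response element, *Hsp90b1* and *Creld2* had log2 fold changes of 0.35 and 0.01, and *Calr*, *Canx*, *Dnajc3*, *Hspa5*, *Pdia6* and *Syvn1* had values from -0.43 to -0.05.

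The sensors of the UPR were not called in either direction, where 8.61% of all genes were called higher and 7.57% lower. *Ern1*, the kinase and RNase IRE1, was at 17.5 and 22.9 FPKM in control and at 20.2 and 16.3 in KO, with a log2 fold change of -0.13 (interval from -0.57 to 0.31). *Eif2ak3*, the kinase PERK, was at 13.6 and 9.28 FPKM in control and at 11.5 and 9.40 in KO, with a log2 fold change of -0.11 (interval from -0.63 to 0.42). The groups overlapped for both kinases, and their intervals leave room for changes in either direction. *Atf6* was at 6.69 and 8.21 FPKM in control and at 8.33 and 9.05 in KO. Both KO values were above both controls, with a log2 fold change of 0.20 (interval from -0.26 to 0.66). *Xbp1*, the transcription factor downstream of IRE1, was at 318 and 329 FPKM in control and at 308 and 269.7 in KO. Both KO values were below both controls, with a log2 fold change of -0.17 and an interval from -0.43 to 0.10. *Xbp1* mRNA was more abundant per length than that of any of the 3 membrane sensors in each library.

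ER-associated degradation returns misfolded proteins to the cytosol for degradation. Of its 4 genes, *Edem1* was called higher (25%, against 8.61% of all genes). *Edem1*, a lectin-like factor that directs misfolded glycoproteins to degradation, was at 75.7 and 73.1 FPKM in control and at 86.4 and 105 in KO. The groups did not overlap, and the log2 fold change was 0.35 (SE 0.13, limma adjusted p = 0.26). *Herpud1*, a membrane protein of the degradation complex and a known target of the UPR, was at 368 and 273 FPKM in control and at 337 and 304 in KO, where both KO values lay between the controls. Its log2 fold change was 0.01 (interval from -0.35 to 0.38). *Sel1l*, the adaptor of the ubiquitin ligase, had a log2 fold change of 0.04. *Syvn1*, the ligase HRD1 itself, was at 6.51 and 9.59 FPKM in control and 9.17 and 4.57 in KO, with a log2 fold change of -0.24 and the widest interval of the group, from -1 to 0.51. The call of *Edem1* was lost without either control replicate or without KO replicate 2.

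**Figure D2:**
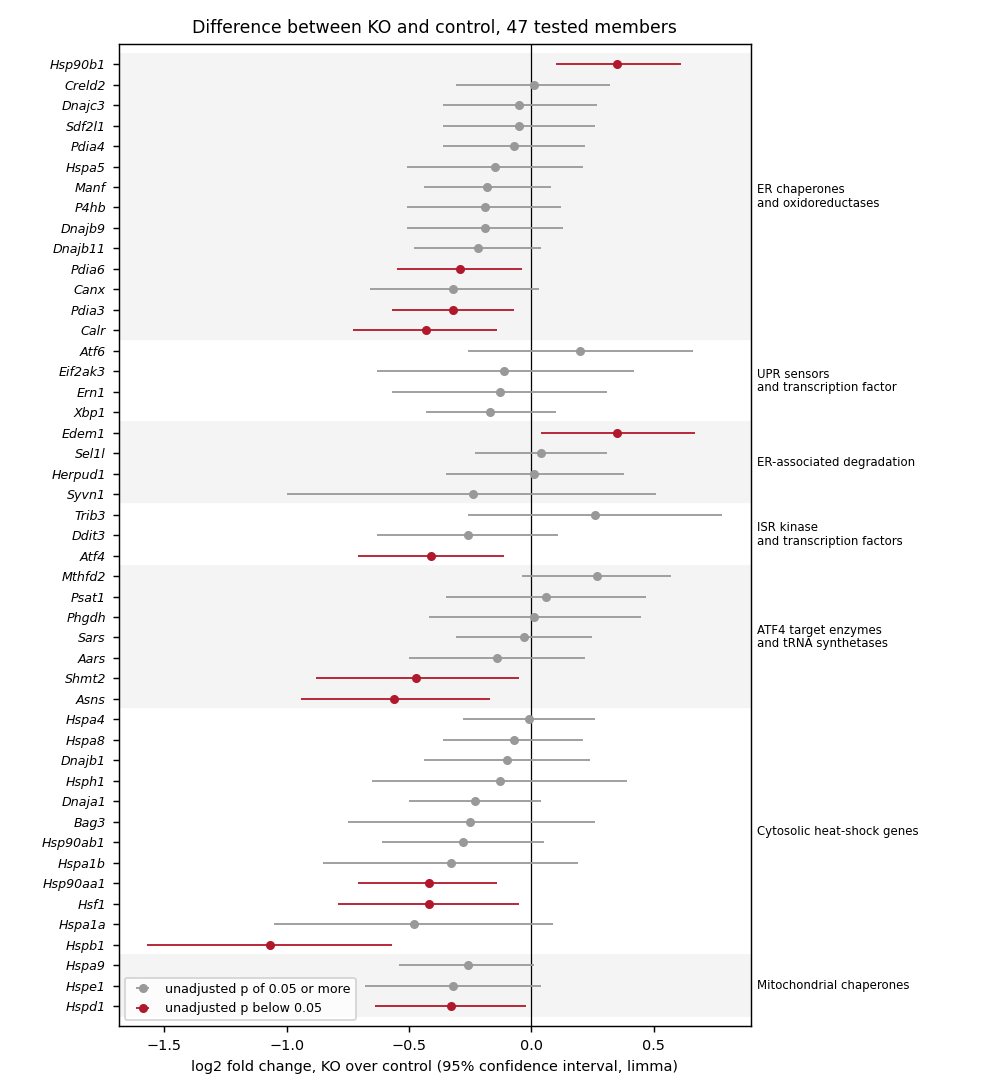
Log2 fold change of KO over control on log2(FPKM + 1) for the 47 tested stress genes, by role, with 95% confidence intervals from limma and with unadjusted p below 0.05 in red. The point farthest from 0 is *Hspb1* at -1.07, 2 red intervals lie above 0 (*Hsp90b1* and *Edem1*) and 10 lie below.

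Of the 3 ISR factors tested, *Atf4* was called lower (33.3%, against 7.57% of all genes). *Atf4*, whose translation is the main output of the ISR, was at 171 and 183 FPKM in control and at 146 and 121 in KO. The groups did not overlap, and the log2 fold change was -0.41 (SE 0.13, limma adjusted p = 0.211). *Ddit3* (CHOP), a transcription factor downstream of ATF4, was at 98.7 and 75.9 FPKM in control and at 77.4 and 67.3 in KO. KO replicate 1 lay between the controls, and the log2 fold change was -0.26 (interval from -0.63 to 0.11). *Trib3*, a pseudokinase that ATF4 and CHOP are known to raise, had a log2 fold change of 0.26 (interval from -0.26 to 0.78). *Eif2ak4*, the amino acid sensor GCN2, was under the filter, with 3.45 and 2.5 FPKM in control and 1.38 and 1.58 in KO.

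Of the ATF4 targets, 4 of 7 (57.1%, against 50.6% of all genes) had a fold change below 0, with a median of -0.03. It was 5 of 7 without control replicate 1 or KO replicate 1, with medians of -0.23 and -0.07. *Asns*, the asparagine synthetase, was at 18.4 and 18.6 FPKM in control and at 13.4 and 11.2 in KO. The groups did not overlap, and the log2 fold change was -0.56 (SE 0.16, limma adjusted p = 0.182). *Shmt2*, the mitochondrial serine hydroxymethyltransferase of one-carbon metabolism, was at 17.2 and 20.6 FPKM in control and 14.7 and 12.1 in KO. Both KO values were again the lower, with a log2 fold change of -0.47 (SE 0.18, limma adjusted p = 0.262). *Mthfd2*, the enzyme of the next step of the same mitochondrial pathway, was at 27.5 and 29.1 FPKM in control and at 34.1 and 34.3 in KO. Its KO values were above both controls and it was not called, with a log2 fold change of 0.27 (interval from -0.04 to 0.57). The serine synthesis enzymes *Phgdh* and *Psat1* had log2 fold changes of 0.01 and 0.06, and the tRNA synthetases *Aars* and *Sars* of -0.14 and -0.03. *Chac1*, a glutathione-degrading enzyme, was listed at 0 and 0.01 FPKM in control and at 0.63 and 0.18 in KO, far under the filter. Of the 5 genes with TGATGNAA, 4 were tested and *Asns* was the one called, where 7.57% of all genes were called lower. A single call does not bear on the element. The calls of *Atf4*, *Asns* and *Shmt2* were lost without KO replicate 2, where their log2 fold changes were -0.27, -0.44 and -0.34, and that of *Shmt2* also without control replicate 2.

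The cytosolic heat-shock genes were below 0 in 12 of 12 fold changes, against 50.6% of all genes, with a median log2 of -0.26. *Hspb1*, the small heat-shock protein HSP25, had the largest fold change of the 47 genes. It was at 49.0 and 31.4 FPKM in control and at 17.2 and 19.3 in KO. The mean was 40.2 ± 12.4 FPKM in control and 18.2 ± 1.49 in KO (SD, n = 2), with a log2 fold change of -1.07 (SE 0.21, limma adjusted p = 0.0821). *Hsp90aa1*, the inducible cytosolic HSP90, was at 1497 and 1257 FPKM in control and at 1015 and 1032 in KO. Neither gene's groups overlapped, and the log2 fold change of *Hsp90aa1* was -0.42 (SE 0.12, limma adjusted p = 0.175). *Hsf1*, the transcription factor of the heat-shock response, was at 69.0 and 74.5 FPKM in control and at 61.6 and 46.2 in KO. Both KO values were below both controls, with a log2 fold change of -0.42 (SE 0.16, limma adjusted p = 0.262). Of these, *Hspb1* and *Hsp90aa1* were called with any 1 of the 4 libraries left out, whereas *Hsf1* was not called without KO replicate 2 or without control replicate 2.

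The other abundant heat-shock genes were not called. *Hspa8*, the constitutive HSC70, was at 3711 and 3241 FPKM in control and at 3361 and 3241 in KO, with a log2 fold change of -0.07 (interval from -0.36 to 0.21). *Hsp90ab1*, the constitutive HSP90, was at 1195 and 959 FPKM in control and at 945 and 827 in KO, with a log2 fold change of -0.28 (interval from -0.61 to 0.05). Both of its KO libraries were below both controls, while the groups of *Hspa8* met at a shared value. *Hspa1a*, the inducible HSP70, was at 702 and 643 FPKM in control and at 643 and 359 in KO, with a log2 fold change of -0.48 and a wide interval from -1.05 to 0.09. KO replicate 1 equalled control replicate 2 and KO replicate 2 lay far below both. The log2 fold change was -0.06 without KO replicate 2 and -0.90, then called, without KO replicate 1. *Dnaja1*, a co-chaperone of HSP70, was at 382 and 333 FPKM in control and at 312 and 295 in KO, with a log2 fold change of -0.23 (interval from -0.50 to 0.04). *Dnajb1*, the main co-chaperone of inducible HSP70, was at 388 and 296 FPKM in control and at 327 and 306 in KO, with a log2 fold change of -0.10 (interval from -0.44 to 0.24). The KO values of *Dnaja1* were below both controls, and those of *Dnajb1* lay between them. *Hspa1b*, *Hspa4*, *Hsph1* and *Bag3* had log2 fold changes from -0.33 to -0.01.

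The control libraries themselves differed in this group. Control replicate 1 exceeded control replicate 2 for 10 of the 12 heat-shock genes, by a median log2 of 0.22, and the group held 1.06% and 0.906% of the summed FPKM in control and 0.889% and 0.816% in KO. Without control replicate 1, 8 of the 12 fold changes were below 0, with a median of -0.14, and without control replicate 2 all 12 were, with a median of -0.40. Without KO replicate 1 or KO replicate 2, 11 of the 12 were below 0, with medians of -0.39 and -0.11. Immediate-early genes, which tissue digestion is known to raise, followed another order: the summed FPKM of *Fos*, *Fosb*, *Jun*, *Junb*, *Egr1*, *Ier2*, *Dusp1* and *Btg2* was 4181 and 6013 in control and 4919 and 3312 in KO. KO replicate 2 was thus the lowest library both for this sum and for the stress genes as a whole. The widest spread was that of *Junb*, at 1207 and 2772 FPKM in control and 1790 and 813 in KO. *Btg2* was above both controls in both KO libraries, *Egr1* was below both, and the groups of the other immediate-early genes overlapped. The part of tissue handling in the heat-shock values was not tested.

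**Figure D3:**
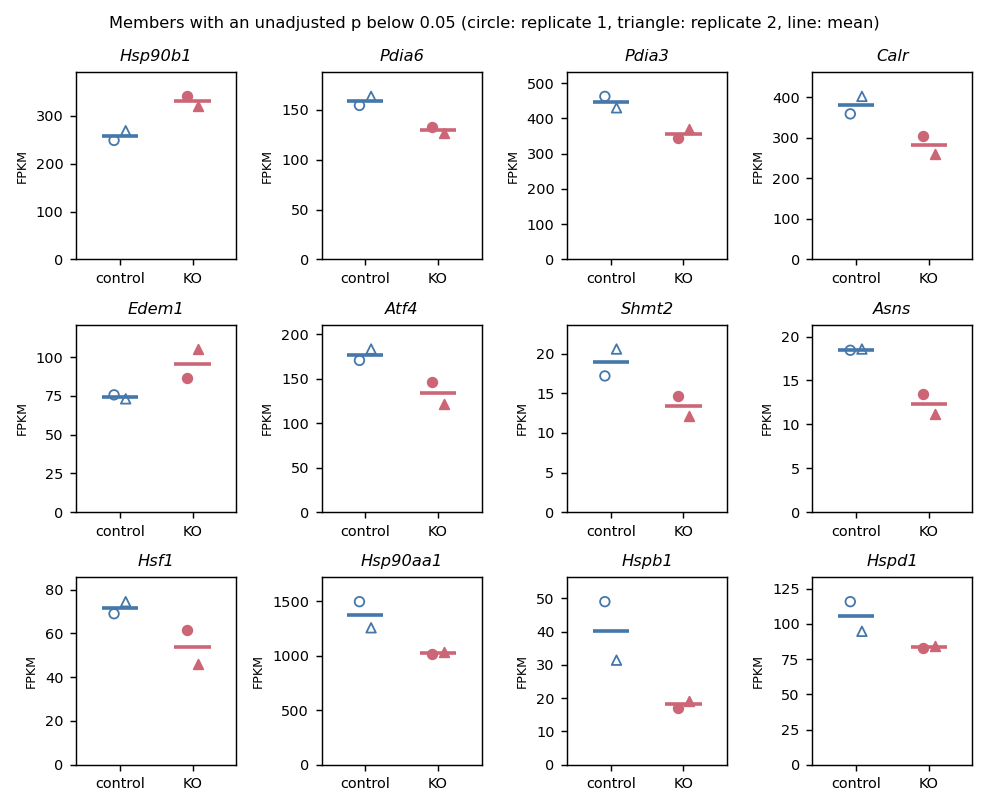
FPKM of the 12 stress genes with an unadjusted p below 0.05, 1 panel per gene with its own axis from 0, with circles for replicate 1, triangles for replicate 2 and lines for the group means. The groups do not overlap in any panel, and the gap between them is widest, relative to the level, for *Hspb1* at means of 40.2 and 18.2 FPKM. Selection by p with 2 libraries per group favours genes whose groups lie apart, so the separation is no further result.

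The mitochondrial chaperones were lower in both KO libraries than in both controls for 3 of 3 genes, against 22.9% of all genes, with a median log2 fold change of -0.32. The median was -0.18 without control replicate 1 and -0.19 without KO replicate 2. Of the 3 genes, 1 was called lower (33.3%, against 7.57% of all genes). Among 11 other mitochondrial chaperones and proteases of the wider list below, 6 fold changes were above 0 and 5 below, with a median of 0.02. *Hspd1*, the chaperonin HSP60, was at 116 and 94.6 FPKM in control and at 82.5 and 84.1 in KO, with a log2 fold change of -0.33 (SE 0.13, limma adjusted p = 0.292). *Hspe1*, the co-chaperonin HSP10 that caps HSP60, was at 82.5 and 67.2 FPKM in control and at 65.1 and 54.3 in KO, with a log2 fold change of -0.32 (SE 0.15, limma adjusted p = 0.356). *Hspa9*, the mitochondrial HSP70, was at 95.5 and 95.3 FPKM in control and 84.2 and 74.8 in KO, with a log2 fold change of -0.26 (limma adjusted p = 0.331). *Hspd1* was thus the one called, near the threshold, and its call was lost without control replicate 1, without KO replicate 1 or without KO replicate 2. *Hspd1* and *Hspe1*, which share the heat-shock units shown above, overlap by 112 bp on opposite strands, where reads cannot be told apart without strand.

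Some of these transcripts share sequence with other genes, which FPKM may divide between them. *Hspa1a* and *Hspa1b* are 99.2% identical over 74.2% of the *Hspa1a* transcript, so that the split between 702 and 25.3 FPKM in control replicate 1 is uncertain. *Hspb1* matches the pseudogene *Hsp25-ps1* at 99.8% identity over 47.4% of its length, and that pseudogene had at most 3.36 FPKM. *Hsp90aa1* matches *Gm12346* at 99.5% over 68.7%, with at most 14.4 FPKM there, and *Hspa8* matches *Gm15459* at 99.7% over 81.1%, with at most 69.8 FPKM. *Hspd1* matches *Hspd1-ps3* at 99.0% over 71.1%, with at most 3.07 FPKM. *Hsp90b1* overlaps *Gm15344* on the same strand, which had at most 3.97 FPKM, and *Dnaja1* overlaps *Smu1*, at up to 137 FPKM, on the other strand.

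Other genes of the same pathways came from a list of 180, of which 178 were in the table and 145 were tested. Of the 145, 54 fold changes were above 0 and 91 below, with a median log2 of -0.05, and 6 genes (4.14%) were called higher and 5 (3.45%) lower, against 8.61% and 7.57% of all genes. *Cct2*, a subunit of the cytosolic chaperonin CCT, was the one with an adjusted p below 0.05. It was at 139 and 124.5 FPKM in control and at 254 and 301 in KO, with a log2 fold change of 1.06 (SE 0.13, limma adjusted p = 0.0262). The other 6 CCT subunits tested, a group added after its values were seen, had values below 0, none of them called. They were lower in both KO libraries than in both controls, as were 22.9% of all genes. The adjusted call of *Cct2* was lost without KO replicate 1 or KO replicate 2, without the filter on low FPKM, with all gene types tested, and without the trend in limma. In the list of ER translocation, folding and glycosylation, 3 of 36 tested genes (8.33%, against 8.61% of all genes) were called higher and 0 lower: *Ssr1* of the translocon-associated complex at a log2 fold change of 0.49, and *Spcs2* and *Sec11c* of the signal peptidase at 0.40 and 0.30. *Edem2*, a relative of *Edem1*, was called higher at 0.44, and *Hspa14*, an HSP70 found at the ribosome, at 0.37. *Hspa14* overlaps *Gm45902* on the same strand, which had at most 6.03 FPKM.

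The genes called lower in the wider list came from 4 of its groups. *Dnajb4*, an HSP70 co-chaperone, was at 28.2 and 25.3 FPKM in control and at 21.3 and 19.1 in KO, with a log2 fold change of -0.39, and *Fkbp4*, a co-chaperone of HSP90, had a log2 fold change of -0.32. *Slc7a1*, a transporter of cationic amino acids, had a log2 fold change of -0.57, *Farsb*, a subunit of phenylalanyl-tRNA synthetase, of -0.41, and the mitochondrial protease gene *Lonp1* of -0.54. The adjusted p from limma of these 10 genes other than *Cct2* ran from 0.189 to 0.292.

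**Figure D4:**
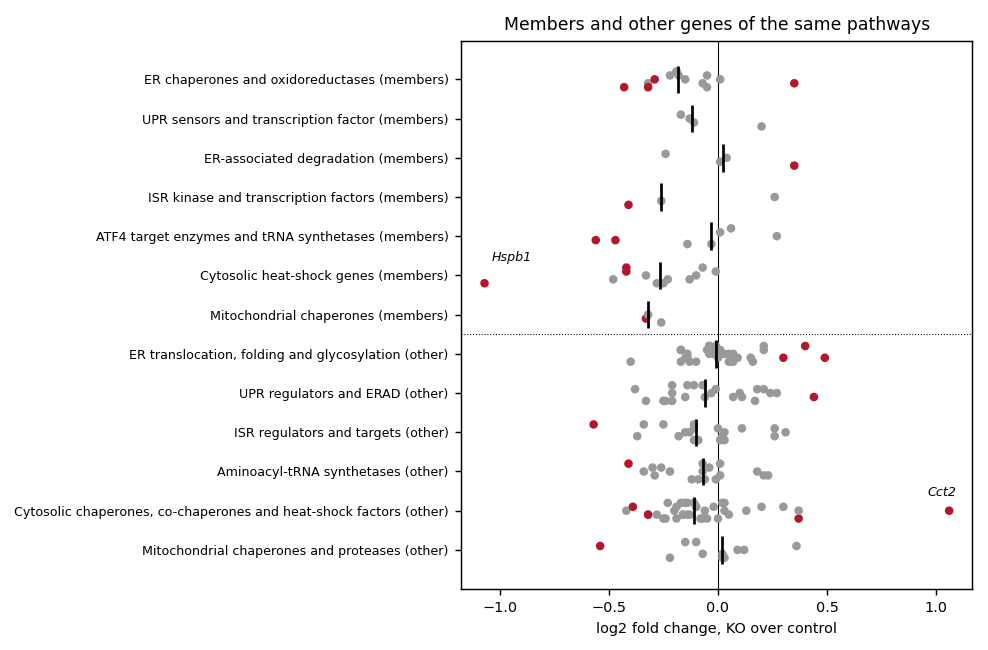
Log2 fold change of KO over control for each tested stress gene (above the dotted line) and each other tested gene of the same pathways (below it), in 1 row per group, with a vertical tick at the group median and unadjusted p below 0.05 in red. Medians of the stress genes run from -0.32 to 0.03 and those of the other lists from -0.11 to 0.02, with *Hspb1* at -1.07 and *Cct2* at 1.06 at the ends.

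The 4 libraries correlated at r of 0.967 to 0.985 over genes, 0.982 between the controls and 0.985 between the KO libraries. Values at the same rank differed by at most 0.173% between the 4 columns over the top 5000 ranks, so all libraries share one distribution, a change in total mRNA is not visible, and 3 abundant stress genes have the same value in 2 libraries. *Setd2* was at 38.2 and 27.4 FPKM in control and 26.3 and 36.3 in KO, with overlapping groups and a log2 fold change of -0.06; a gene total does not show which exons were present and does not check the deletion. *Foxp3*, which defines Treg cells, was at 2.62 to 5.61 FPKM in the 4 libraries, and the summed Treg markers (*Foxp3*, *Ikzf2*, *Il2ra*, *Ctla4*, *Cd3e* and *Cd4*) were at 2212 and 2409 FPKM in control and 2757 and 2867 in KO. *Ctla4* made up most of this sum, at 1593 and 1701 FPKM in control and 2160 and 2310 in KO, whereas both KO values were below both controls for *Ikzf2* (log2 fold change -0.37) and *Il2ra* (-0.21), and *Cd4* and *Cd3e* were at -0.29 and 0.00 with overlapping groups. Plasma cells, which are rich in ER chaperones, showed 5 of 6 markers above 1 FPKM in some library, led by *Igha* and *Jchain*, with sums of 404.5 and 604 in control and 418 and 494 in KO, overlapping between groups, and *Tnfrsf17* at no more than 0.44. Of 6 epithelial markers 2 exceeded 1 FPKM, *Epcam* at 28.7 and 30.8 in control and 19.6 and 21.1 in KO, and *Krt18* at 4.23 and 4.52 against 7.22 and 7.18. Summed markers of myeloid cells were at 219.7 to 241 FPKM in control and 227 to 271 in KO. Those of stromal and endothelial cells were at 37.0 to 40.6 FPKM in control and 47.9 to 54.9 in KO. *Pecam1* alone made up most of the latter sum, at 34.65 and 36.26 FPKM in control and 49.25 and 42.72 in KO. *Dcn* was at 1.21 and 3.22 FPKM in control and 4.47 and 4.25 in KO. *Col1a1*, *Col3a1* and *Pdgfra*, the last of them lower in KO, stayed under 1 FPKM. Summed markers of B cells were at 12.1 to 16.2 FPKM in all libraries, and those of CD8 T and NK cells at 2.2 to 3.0. The part of other cells in the values of the stress genes was not tested. The p-values rest on the spread between 2 pools per group, the read depth is unknown, and adding 1 to FPKM understates the fold change of the genes with the lowest values.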

How the data were processed

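LI Treg libraries of 150 bp paired reads were mapped to GRCm38 by the authors with STAR v2.5 and quantified with RSEM v1.2, as the submitters' processing notes and the methods give. Per library, the authors deposited 1 column of FPKM over 53379 genes, and the 4 columns share one distribution, a step that the methods do not name. FPKM keep no depth, so no counting interval or count test was possible, and precision was read from the spread of 2 pools (2 to 3 mice each). Pools came from littermates, and the sources do not say whether same-numbered pools were collected together.

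Gene types and positions came from a later GENCODE release for GRCm38, which held 53274 of the identifiers. KO was compared with control on log2(FPKM + 1) in limma 3.58.1 (R 4.3.3; trend, no covariate) over 7639 protein-coding genes that averaged over 5 FPKM in control or in KO, with Benjamini-Hochberg adjustment. The fit was also run on simulated data with larger changes than those of most stress genes, which does not test the calls given here. Promoter windows were read from RefSeq tables and searched in Python 3.11.15 (pandas 2.3.3, numpy 2.4.6). Shared sequence was searched with BLAST 2.17.0. Plots were made in matplotlib 3.10.9.

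The stress genes, the other lists and the marker lists were chosen with earlier results of these data known. Values in every library were given for stress genes with an unadjusted p below 0.05, for the sensors and factors, and for the 10 of highest mean FPKM, and those of other pathway genes for an unadjusted p below 0.05; *Canx*, *Mthfd2*, *Hspe1*, *Hspa9*, *Syvn1* and *Chac1*, the CCT subunits as a group and the genes that overlap or share sequence were added after their values were seen. Alternatives were other pseudocounts, filters, scalings and gene types, no trend, a replicate block, a crossed pairing and each library left out.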

Additional observations from a re-analysis of the deposited data

How the results depend on the processing

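In limma without the trend of variance on level, 616 of all 7639 genes were called higher and 555 lower. The counts of stress genes called at an unadjusted p below 0.05 (2 higher, 10 lower) were then 1 and 6. With 1 library left out, 1 was higher in each fit and 3 to 15 were lower, the lowest count without KO replicate 2. No label says that the replicate numbers pair the libraries, and same-numbered control and KO libraries had deviations correlated at -0.305, which cannot settle it with 2 numbers; with the replicate number as a block, 1 stress gene was called higher and 6 lower, *Hspa1a* among them, other pathway genes called lower went from 5 to 2, and all genes called from 658 higher and 578 lower to 419 and 377. A crossed pairing, chosen after seeing the data, called 3 stress genes higher and 15 lower, 13 other pathway genes higher and 16 lower, and 1008 and 983 of all genes. Without a filter on low FPKM, 13 of 177 other pathway genes were higher and 9 lower, where 1170 of all 17694 genes were higher and 776 lower. With 1 library left out, other pathway genes ranged from 2 to 10 higher and from 0 to 8 lower, and all genes from 330 to 650 higher and from 314 to 600 lower. An adjusted p below 0.05 was reached by 1 stress gene without control replicate 2 (36 of all genes higher, 30 lower) and by 3 under the crossed pairing (240 higher, 225 lower), against 24 and 21 of all genes as reported. With 1 library left out, of the genes with values given in every library by the rule, 6 that were not called had log2 fold changes of both signs: *Hspa5* ranged from -0.35 to 0.05 (above 0 without KO replicate 2), *Ern1* from -0.32 to 0.05 (0.05 without control replicate 2, 0.02 without KO replicate 2), *Eif2ak3* from -0.36 to 0.15 (0.15 without control replicate 1, 0.03 without KO replicate 2), *Hspa8* from -0.17 to 0.03 and *Dnajb1* from -0.30 to 0.09 (above 0 without control replicate 1), and *Herpud1* from -0.20 to 0.23 (-0.20 without control replicate 2, -0.06 without KO replicate 1). Pseudocounts of 0.1 or 5 called the same 12 stress genes. Rescaling, median centring and quantile normalization did too, but could change little, since the columns already share one distribution. Without the trend, the calls of *Edem1*, *Hsf1*, *Hspd1*, *Pdia3* and *Pdia6* were lost, and the replicate block lost these and that of *Shmt2*. The calls of *Hsf1* and *Hspd1* were lost without the filter on low FPKM, and that of *Hspd1* with all gene types. Losses given by role above cover only the fits with 1 library left out. The cause of these shifts was not tested. A leave-one-out fit assumes that the lone library varies like the other group. FPKM keep no depth, so counting error could not be separated from the spread between pools.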
